A study of Mus musculus with 12 samples.

Results

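The nuclear genes of the oxidative phosphorylation complexes were followed in M1-activated bone marrow-derived macrophages (BM-Mɸs). They were taken from the expression table by gene symbol, as the genes that begin with Nduf, Uqcr, Cox4 to Cox8 or Atp5 together with Sdha, Sdhb, Sdhc and Sdhd. The rule gave 94 of the 22243 genes in the table, represented by 121 of its 28808 transcripts. It takes in 7 core and 29 accessory subunits of complex I, 8 complex I assembly factors, 4 genes of complex II, 8 of complex III, 11 of complex IV, 18 of complex V and 9 tissue-restricted or paralogous isoforms. Ndufa4, whose protein is now counted as a subunit of complex IV, was placed there. Cyc1, the mitochondrially encoded subunits and AA467197, which is related to Ndufa4, lie outside the rule and are described separately.

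Bulk RNA sequencing measured 12 cultures, 6 from ErbB4myeKO mice (LysMCre/ErbB4-floxed) and 6 from ErbB4FF littermates (ErbB4-floxed), with 1 of each genotype from each of 6 litters. Both groups carry the floxed ErbB4 alleles, so they differ in LysMCre, a Cre recombinase expressed from the lysozyme locus of myeloid cells. The paper names C57Bl/6J mice among those it used and does not state the background of this cross. Bone marrow was grown in CMG14-12 conditioned medium, a source of M-CSF, and the age and sex of these mice are not on the labels. All 12 cultures then received 100 U/mL interferon-γ for 16 h and 100 ng/mL LPS for 6 h, so the table has no unstimulated cells and shows no response to activation. Values are TPM, the usual unit of transcript abundance relative to the whole library, which is scaled for transcript length, so the levels of different genes can be set side by side. A gene's TPM covers only the transcripts that the authors kept as principal isoforms, and the read depth behind each value cannot be read from the table. Erbb4 was 0.583 ± 0.242 TPM (SD, n = 6) in libraries labelled ErbB4myeKO and 0.450 ± 0.132 TPM (SD, n = 6) in those labelled ErbB4FF, higher in the former in 4 of 6 litters, so the libraries are named by their label. The value sums over all exons of the transcript, so it does not measure the floxed part on its own.

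In the inner mitochondrial membrane, complex I (NADH dehydrogenase) and complex II (succinate dehydrogenase) hand electrons to ubiquinone, complex III hands them to cytochrome c, and complex IV (cytochrome c oxidase) reduces oxygen. The proton gradient built on the way drives complex V, the ATP synthase. Macrophages activated with interferon-γ and LPS are known for relying less on mitochondrial respiration and more on glycolysis. In bulk samples such as these, fewer cells of a type and less RNA per cell cannot be told apart.

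Median levels were higher in complexes III, IV and V than in complexes I and II. The median of the mean levels was 32.5 TPM over the 36 subunits of complex I, 80.5 TPM in complex II, 152 TPM in complex III, 304 TPM in complex IV and 156 TPM in complex V. Without litter 5, whose values are given later, these medians were 28.7, 74.9, 122, 256 and 137 TPM, in the same order. The complex I assembly factors, which build the enzyme and are not part of it, had a median of 2.68 TPM. A minimum average level of 1 TPM was set for testing, and 83 of the 94 genes passed it and 11 did not. Those 11 were 7 isoforms, the accessory subunit Ndufc1 (0.587 TPM), the assembly factors Ndufaf7 (0.487 TPM) and Ndufaf4 (0.293 TPM), and 1 of 2 genes named Atp5o. The level of a transcript does not give the amount of its protein.

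**Figure D1:**
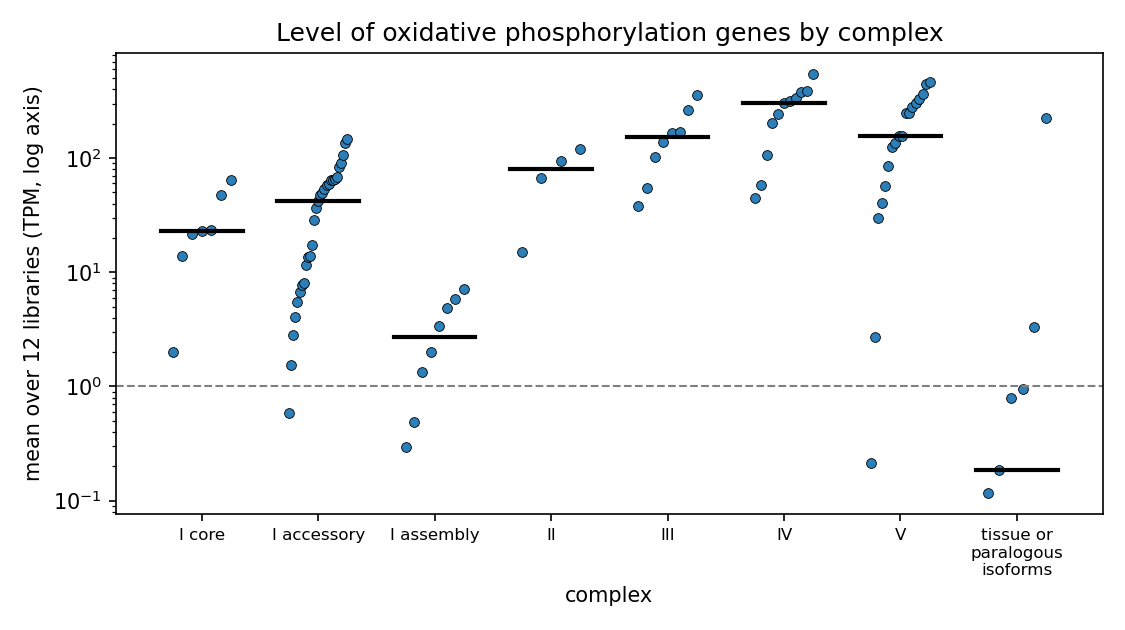
Mean TPM over the 12 libraries (log axis) of each gene by complex, with the median of each complex as a black line and the 1 TPM filter as a dashed line. The median lies at 304 TPM in complex IV and at 2.68 TPM in the complex I assembly factors, and the 3 isoforms listed at 0 are not drawn but are counted in their median.

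Within a complex, whose protein subunits are present in fixed proportions, transcript levels spanned a wide range. In complex IV they ran from 44.9 TPM to 546 TPM for Cox8a, which encodes a small subunit and had the highest mean of the 94 genes. Without litter 5 the mean of Cox8a was 439 TPM, below that of Atp5b at 464 TPM. In complex V Atp5b, the catalytic β subunit, had a mean of 464 TPM over the 12 libraries, and Atp5md one of 446 TPM. The lowest value there, 0.215 TPM, belonged to the lower of the 2 Atp5o genes (ENSMUSG00000116933), whose transcript shares 94% of its 31-mers with other genes, as the other Atp5o gene does 63.2%, so their levels are uncertain. Among the core subunits of complex I, Ndufv2 of the NADH-oxidising module stood at 2.02 TPM. Other low subunits were Ndufa3 (1.55 TPM), Atp5j2 (2.71 TPM), Ndufab1 (2.84 TPM) and Ndufa5 (4.09 TPM). The table held 1 transcript each of Ndufv2, Ndufa3, Atp5j2 and Ndufa5, where GENCODE lists 4, 6, 5 and 4. It held 2 of Ndufab1, where GENCODE lists 10. Transcripts outside the table were not analysed here.

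Few neighbours in the order of levels were separated in every library. Of 75 pairs of neighbouring tested genes within a complex, 17 kept their order in all 12 libraries. In complex II, Sdhb, the iron-sulfur subunit, was above Sdha, the flavoprotein subunit that oxidises succinate, in all 12 libraries, and Sdha was above Sdhc, a membrane anchor, in all 12. Sdhd, the other anchor, was above Sdhb in 10. In complex III, Uqcrh, the hinge protein next to cytochrome c1, was above Uqcrb in 11 of 12 libraries. Cox8a was above Cox5a in all 12, whereas Ndufa1 and Ndufa2, the most abundant complex I subunits, were in this order in 6 of 12.

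The comparison of genotypes asked whether loss of ErbB4 in myeloid cells changed these transcripts during M1 activation. In limma, with litter as a block, 0 of the 83 genes had an adjusted p under 0.05, and 0% of the 8780 genes tested passed this threshold. The smallest adjusted p was 0.603, both among the 83 genes and among all genes. At an unadjusted p under 0.05 there were 8 of the 83 genes, 9.64% of them, where 8.21% of all genes tested had such a p, so in this fit the share was near the background. All 8 were lower in libraries labelled ErbB4myeKO, and 385 (4.38%) of all genes tested were lower with such a p. The mean log2 ratio of libraries labelled ErbB4myeKO to those labelled ErbB4FF was below 0 for 60 of the 83 genes (72.3%) and for 50.2% of all genes. The median ratio of the 83 genes was -0.06, where that of all genes was 0.00. In litters 1 to 6 the medians of the 83 genes were -0.04, 0.02, -0.09, -0.04, -0.10 and -0.20, so litter 6 had the largest difference and litter 2 had none in this direction. Without the litter block 1 of the 83 genes and 0.854% of all genes had an unadjusted p under 0.05. With litter 1 left out 5 of 84 did (4 lower), where 8.21% of all genes did, and with litter 2 left out 12 of 84 did (10 lower), where 4.69% of all genes did, so the share of these genes read against the background depended on the litters in the fit. For 59 of the 83 genes limma's 95% interval of the log2 ratio lay within ±0.5, as it did for 4588 of the 8780 genes tested.

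**Figure D2:**
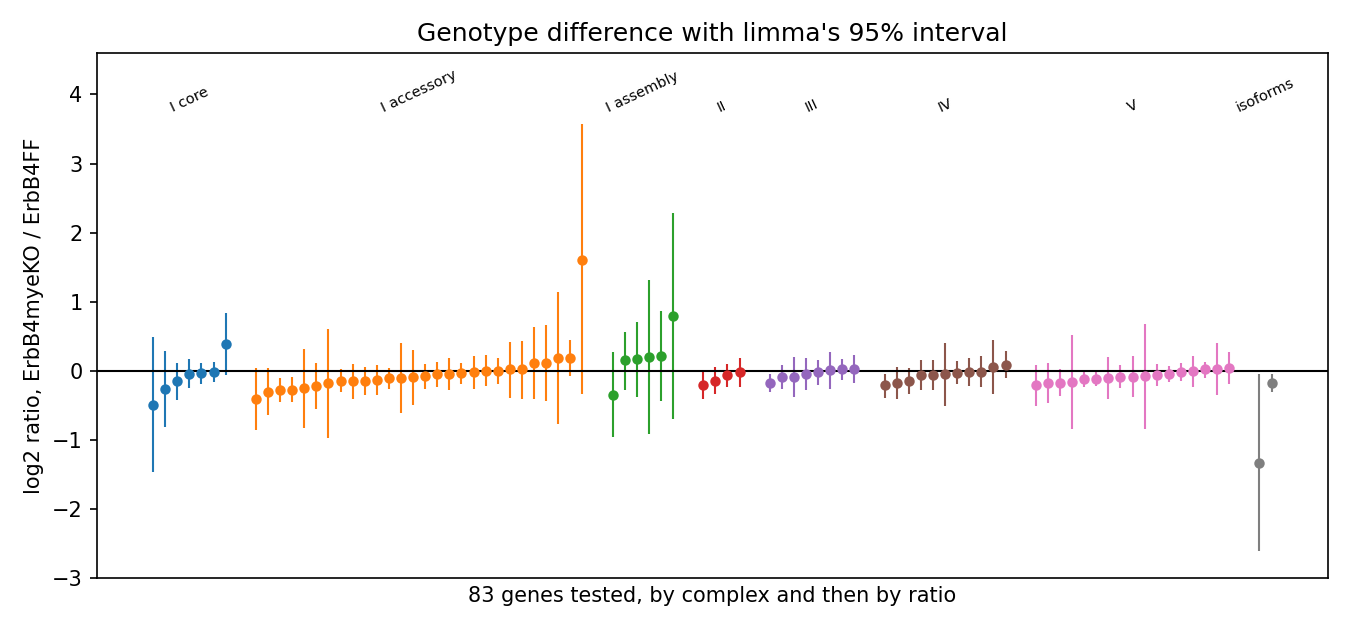
Mean log2 ratio of ErbB4myeKO to ErbB4FF libraries for the 83 genes tested, grouped by complex, with limma's 95% interval as bars. Most of the intervals include 0, and the widest belong to genes of low level such as Ndufa3 and Cox7a1.

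By complex, the share of genes with a ratio below 0 was 25 of 35 in complex I, 4 of 4 in complex II, 5 of 8 in complex III, 9 of 11 in complex IV and 14 of 17 in complex V. The medians of these ratios lay between -0.10 in complex II and -0.03 in complex III. The 6 complex I assembly factors tested went the other way, with 5 of 6 above 0 and a median of 0.18. In limma 0 of the 6 had an unadjusted p under 0.05. Their medians in litters 1 to 6 were 0.62, 0.00, -0.01, 0.41, 0.14 and -0.29, so litters went both ways. Differences between the medians of the complexes and the assembly factors were not tested. The ranges of the groups overlapped for each of the 94 genes, and 0.0456% of all genes tested had groups that did not overlap.

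The 6 genes Ndufs6, Ndufb5, Cox7a2l, Uqcrh, Atp5g3 and Atp5a1 were lower in the library labelled ErbB4myeKO in 6 of 6 litters, and no gene of the 83 was higher in all 6. Among all genes tested 2.31% were lower in every litter, and the share that was higher in every litter is not given here. One sign in all 6 litters fixes the exact permutation p at 0.0312, the smallest that the 64 swaps of genotype within litters can give. This p of 0.0312, here and for the genes below, therefore restates the count of litters and adds no support. Limma's adjusted p was 0.603 for each of these 6 genes.

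Ndufs6 (ENSMUSG00000021606, GRCm38 chromosome 13, 73319838 to 73328542) encodes a zinc-binding accessory subunit of complex I. In libraries labelled ErbB4myeKO its lowest, median and highest levels were 37.3, 51.5 and 103 TPM, and in those labelled ErbB4FF they were 49.4, 60.1 and 133 TPM. The highest value of each group came from litter 5, and the groups overlapped although each pair of littermates went the same way. Across the 6 litters the mean log2 ratio was -0.28 ± 0.16 (SD), strongest in litter 4 at -0.52 and weakest in litter 3 at -0.12. The SE in limma was 0.07, with an adjusted p of 0.603. Ndufs6b holds 26.8% of the 31-mers of this transcript, so reads may have been split between these 2 genes.

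Ndufb5 (ENSMUSG00000027673, chromosome 3, 32736990 to 32751566) encodes an accessory subunit of the membrane arm of complex I. Its lowest, median and highest levels were 9.85, 14.0 and 28.6 TPM in libraries labelled ErbB4myeKO and 12.1, 17.1 and 35.3 TPM in those labelled ErbB4FF. Its mean ratio over the 6 litters was -0.27 ± 0.14 (SD), with the extremes of -0.48 in litter 1 and -0.07 in litter 2. Its SE in limma was 0.08, with the same adjusted p. Litter 5 was again the highest of each group, and the groups overlapped. The transcript shares 17.7% of its 31-mers with Mrpl47.

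Uqcrh (ENSMUSG00000063882, chromosome 4, 116066965 to 116075071) was at 260, 282 and 624 TPM (lowest, median, highest) in libraries labelled ErbB4myeKO and at 277, 313 and 690 TPM in those labelled ErbB4FF. The ratio was -0.17 ± 0.10 (SD, n = 6 litters) and largest in litter 6, at -0.36. Cox7a2l (ENSMUSG00000024248, chromosome 17, 83501918 to 83517330), which takes part in joining complexes III and IV into supercomplexes, had 173, 191 and 326 TPM in the first group and 187, 216 and 372 TPM in the second. Its ratio was -0.17 ± 0.09 (SD, n = 6 litters), with -0.03 in litter 1 as the smallest difference. Both genes overlapped between the groups, and 16.4% and 23.3% of their 31-mers occur in other genes.

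In complex V, Atp5a1, the α subunit that forms the catalytic head together with Atp5b, was at 109, 118 and 133 TPM in libraries labelled ErbB4myeKO and at 117, 129 and 144 TPM in those labelled ErbB4FF. Its ratio was -0.12 ± 0.06 (SD, n = 6 litters). Atp5b, its partner, was at 404, 468 and 510 TPM in the first group and 422, 454 and 506 TPM in the second. The ratio of Atp5b was 0.02 ± 0.06 (SD, n = 6 litters), less than its SD over litters, and the 95% interval from limma was -0.10 to 0.13.

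**Figure D3:**
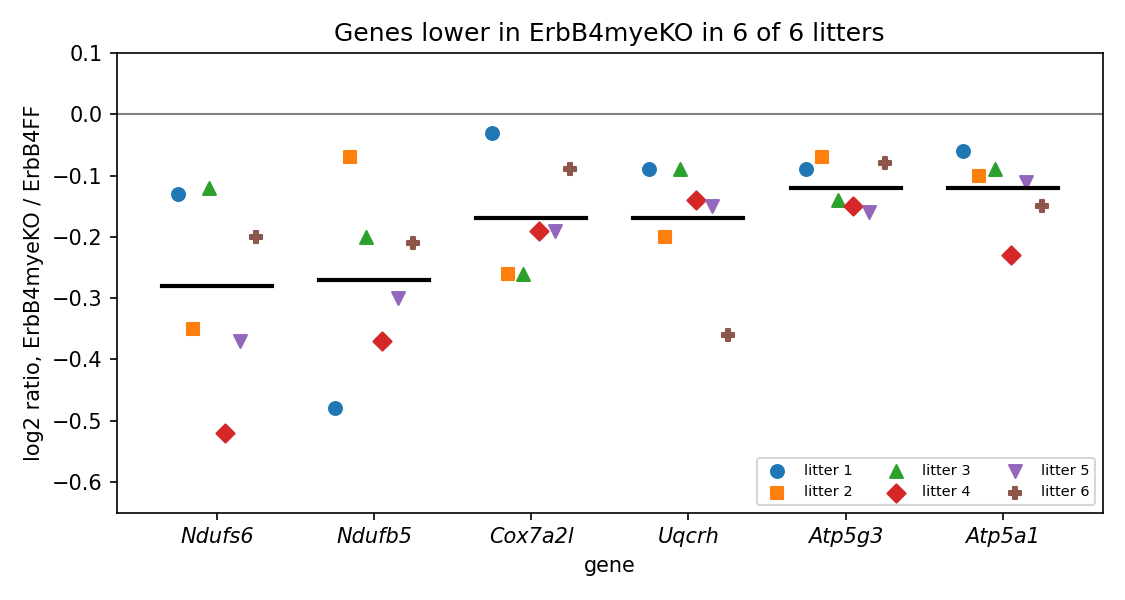
Log2 ratio of ErbB4myeKO to ErbB4FF littermates in each of the 6 litters (symbols) for the 6 genes that were lower in every litter, with the mean as a black line. The ratios lie between -0.52 for Ndufs6 in litter 4 and -0.03 for Cox7a2l in litter 1.

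The remaining 2 genes with an unadjusted p under 0.05 in limma did not go one way in every litter. Ndufa4 was at 101, 171 and 374 TPM in libraries labelled ErbB4myeKO and at 144, 186 and 393 TPM in those labelled ErbB4FF. Its log2 ratio was -0.21 ± 0.18 (SD, n = 6 litters), lower in 5 of 6 litters (exact permutation p = 0.0625). Cox7a1, the heart and muscle form of subunit VIIa, is described with the other isoforms.

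The 4 subunits of complex II had mean ratios below 0, none of them beyond the spread between litters. Sdhb (ENSMUSG00000009863, chromosome 4, 140961203 to 140979193) was at 63.9, 78.9 and 147 TPM in libraries labelled ErbB4myeKO and at 81.8, 89.5 and 141 TPM in those labelled ErbB4FF. Its ratio of -0.20 ± 0.22 (SD, n = 6 litters) was below 0 in 5 of 6 litters (exact permutation p = 0.0938). Sdhd had -0.14 ± 0.20, Sdha -0.06 ± 0.15 and Sdhc -0.02 ± 0.17 (SD, n = 6 litters each), and limma's adjusted p lay between 0.603 for Sdhb and 0.939 for Sdhc. Cox8a was at 369, 441 and 1058 TPM in the first group and 360, 468 and 1098 TPM in the second, with a ratio of -0.06 ± 0.24 (SD, n = 6 litters). Cox5a, the next of complex IV, had -0.14 ± 0.20, Uqcrb of complex III -0.02 ± 0.19, Atp5md of complex V 0.04 ± 0.26, and Ndufa1 and Ndufa2 of complex I -0.02 ± 0.27 and -0.05 ± 0.18 (SD, n = 6 litters each). All of these were smaller than the spread between litters. The transcripts of Uqcrb, Cox5a and Atp5md share 58.2%, 47.2% and 44.0% of their 31-mers with other genes, so their levels are uncertain too.

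Among the genes with a higher mean in libraries labelled ErbB4myeKO, those with the smallest p were Ndufs7, Ndufa3, Ndufb6, Ndufaf6 and Cox7c. Ndufs7, an iron-sulfur subunit of complex I, was at 8.68, 26.2 and 40.2 TPM in libraries labelled ErbB4myeKO and at 13.1, 16.8 and 22.2 TPM in those labelled ErbB4FF. Its ratio was 0.39 ± 0.55 (SD, n = 6 litters), higher in 5 of 6 litters (exact permutation p = 0.156), and litter 2 went the other way at -0.57. Ndufa3 was listed at 0 in 5 of the 6 libraries labelled ErbB4FF and in 2 of those labelled ErbB4myeKO, where the other 4 lay between 1.83 and 5.82 TPM. In litter 1 the order was the reverse, with 2.57 TPM in the library labelled ErbB4FF and 0 in its littermate (exact permutation p = 0.188). Ndufb6 had 0.19 ± 0.30 and Cox7c 0.09 ± 0.21 (SD, n = 6 litters each), and they share 36.1% and 55.7% of their 31-mers with other genes. Ndufaf6, an assembly factor, was listed at 0 in litters 1, 3 and 4 of the libraries labelled ErbB4FF and in litter 2 of those labelled ErbB4myeKO. Of the 2 most abundant assembly factors, Ndufaf2 had a ratio of 0.15 ± 0.48 and Ndufaf5 one of 0.17 ± 0.66 (SD, n = 6 litters each), and the latter rested on litter 3, at 1.51, since Ndufaf5 was lower in the other 5.

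The c subunit of ATP synthase, which forms the rotating ring in the membrane, is encoded by the 3 genes Atp5g1, Atp5g2 and Atp5g3. Their last 75 codons encode the same 75 residues, which hold the mature protein, while the bases are 78.7% to 84.9% identical between genes, with no shared run longer than 20 bases. The first 90 bases of this stretch of the coding sequence (GENCODE M21) are shown to set the genes apart, with the 22 positions at which they differ in capitals.
Atp5g1: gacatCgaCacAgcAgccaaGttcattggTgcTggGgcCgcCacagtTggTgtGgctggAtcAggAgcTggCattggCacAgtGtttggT
Atp5g2: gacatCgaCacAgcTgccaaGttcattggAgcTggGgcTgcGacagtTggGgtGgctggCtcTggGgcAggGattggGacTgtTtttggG
Atp5g3: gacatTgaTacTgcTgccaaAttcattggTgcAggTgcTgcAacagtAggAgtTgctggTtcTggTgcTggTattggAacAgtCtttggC
Atp5g3 was the most abundant of the 3, at 232, 248 and 491 TPM in libraries labelled ErbB4myeKO and 244, 274 and 547 TPM in those labelled ErbB4FF. Its ratio was below 0 in every litter, from -0.16 to -0.07, with a mean of -0.12 ± 0.04 (SD, n = 6 litters). Atp5g1 was at 107, 135 and 262 TPM in the first group and 101, 146 and 280 TPM in the second, with a ratio of -0.09 ± 0.36. Atp5g2 was at 47.6, 81.4 and 127 TPM and at 56.3, 79.9 and 140 TPM, with a ratio of 0.00 ± 0.24 (SD, n = 6 litters). The 2 transcripts of Atp5g3 in the table share no 31-mer with another gene. The 2 most abundant of Atp5g1 share 57.6% and 67.3% and that of Atp5g2 shares 87.7%, mostly with Gm10039 and Gm10175, so the values of Atp5g1 and Atp5g2 are uncertain.

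Apart from Cox7a2l, the isoforms that other tissues or states use were low or at 0. Cox8b, Cox7b2 and Cox8c were listed at 0 in all 12 libraries. Ndufa4l2, a paralogue of Ndufa4 that is induced by hypoxia, reached 1.27 TPM, and Cox6b2, the testis form, reached 0.973 TPM. Cox4i2, the lung form of subunit IV, did not exceed 0.843 TPM in libraries labelled ErbB4myeKO and 3.88 TPM in those labelled ErbB4FF, where Cox4i1, the usual form, was at 279 ± 85.9 and 329 ± 159 TPM (SD, n = 6 each). Cox6a2, the muscle form of subunit VIa, was between 0.224 and 4.0 TPM. Cox7a1 was at 0, 2.20 and 4.71 TPM in libraries labelled ErbB4myeKO and at 1.60, 4.65 and 7.39 TPM in those labelled ErbB4FF. It was listed at 0 in litters 2 and 3 of the first group and was below the littermate in all litters but litter 4. The mean log2 ratio on the log2(TPM + 0.5) scale was -1.33 ± 1.63 (SD, n = 6 litters), smaller than its spread (exact permutation p = 0.156).

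Litters differed in more of these genes than genotypes did. In a test of the litter terms of the same limma fit, chosen after the data had been seen, 56 of the 83 genes (67.5%) had an adjusted p under 0.05, where 44.9% of all genes tested did. The summed level of the 94 genes was between 7317 and 10769 TPM in the 10 libraries of litters 1 to 4 and 6, and in litter 5 it was 15894 TPM in the library labelled ErbB4myeKO and 17163 TPM in that labelled ErbB4FF. These were 1.94 and 2.01 times the mean of the same group's other litters. With litter 5 left out, 7 of the 84 genes then tested (8.33%) differed between litters, where 11.5% of all genes did.

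**Figure D4:**
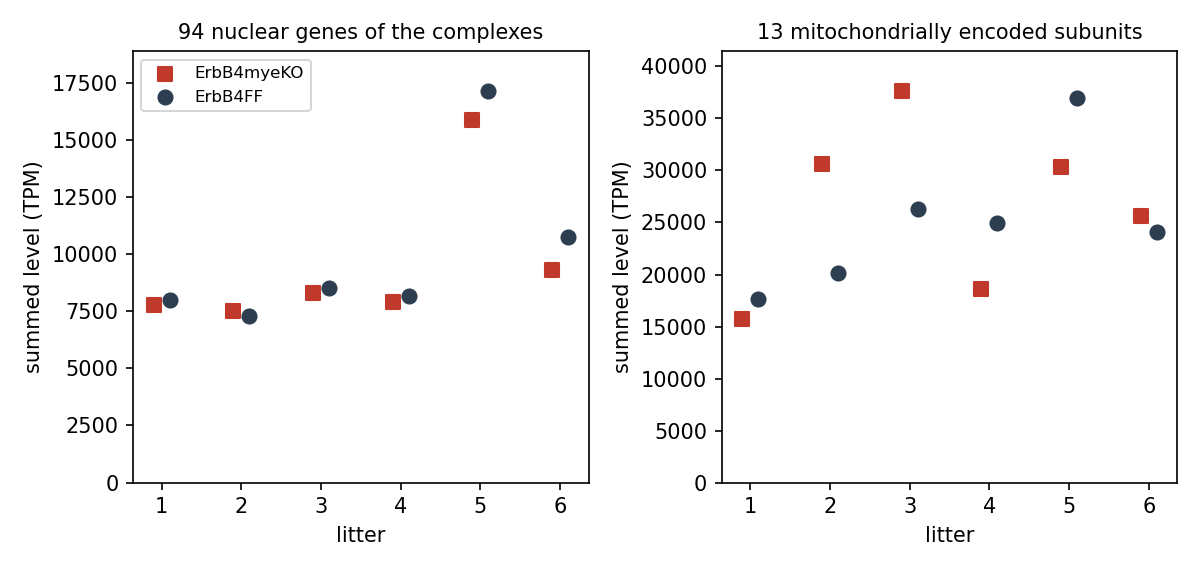
Summed TPM in each library by litter, for the 94 nuclear genes (left) and the 13 mitochondrially encoded subunits (right), with squares for ErbB4myeKO and circles for ErbB4FF. On the left both libraries of litter 5 lie at 15894 and 17163 TPM, where the other 10 reach 10769 TPM, and on the right the highest library is from litter 3.

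Both libraries of litter 5 lay above the other 10 for 58 of the 83 genes (69.9%) and for 20.2% of all genes tested. On the log2 scale the median of litter 5 minus the mean of the other litters was 0.95 for the 83 genes, a factor of 1.94, and 0.06 for all genes. It was 0.99 in complex I, 0.84 in complex II, 1.01 in complex III, 1.14 in complex IV and 0.96 in complex V, and 0.77 in the assembly factors. Within complex I the 28 accessory subunits had 1.00 and the 7 core subunits 0.28. Ndufb2, an accessory subunit of complex I, had the largest difference, at 59.3 and 69.2 TPM in litter 5 and between 13.8 and 29.5 TPM elsewhere. Uqcr11, a small subunit of complex III, was at 318 and 247 TPM there against 74.2 to 180 TPM. Not all genes were higher in litter 5. Atp5b was at 471 and 461 TPM in litter 5 and between 404 and 510 TPM elsewhere, and Ndufs1, the largest core subunit of complex I, was lower, at 19.8 and 18.5 TPM against 21 to 26.8 TPM.

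The litter 5 difference was larger in transcripts of up to 1500 bases than in longer ones. Most of these transcripts are short, with a median of 763 bases for the 83 genes and 2690 bases for all genes tested. The 40 genes of up to 750 bases had a median litter 5 difference of 1.09, the 28 from over 750 to 1500 bases 0.91, the 13 from over 1500 to 3000 bases 0.52, and the 2 longer genes 0.56. The other genes tested had 0.90, 0.64 and 0.21 in the same length ranges, and -0.39 over 3000 bases. The 78 cytosolic ribosomal proteins, also short transcripts, had a median of 0.88, and the 66 mitochondrial ribosomal proteins 0.75. The transcripts of the table held 71.4% and 74.7% of all TPM in litter 5 and 59.0% to 64.9% in the other libraries. The part of transcript length in the litter 5 values was not tested. A batch that followed the litters cannot be told apart from litter. Between genotypes the median ratio of the 83 genes was -0.06, -0.08, -0.06 and 0.00 in the same 4 length ranges, and that of the other genes -0.03, -0.04, -0.01 and 0.03.

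**Figure D5:**
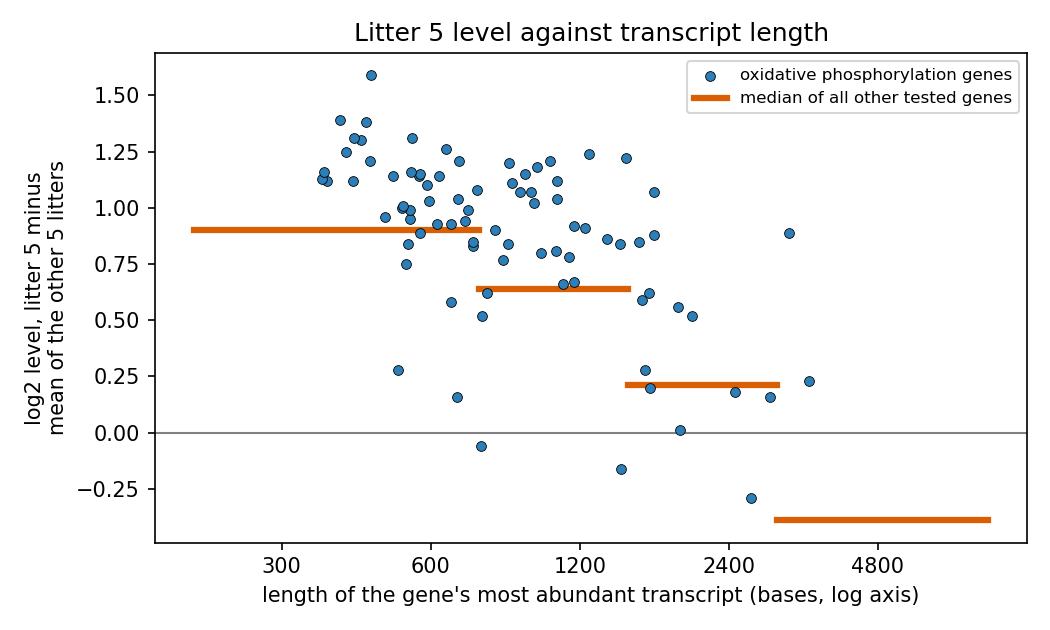
Log2 level in litter 5 minus the mean of the other litters for the 83 genes, against the length of the most abundant transcript (log axis), with the median of all other tested genes in 4 length ranges as orange lines. The last line stands for all lengths over 3000 bases, and the points fall from a median of 1.09 up to 750 bases to 0.52 between 1500 and 3000 bases, with 0.56 for the 2 longer genes.

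The promoters of the 94 genes were searched for 3 motifs of factors known to bind promoters of respiratory genes. The windows held 250 bases before and 50 after the start of transcription (RefSeq, GRCm38.p6), were read on both strands, and were found for 76 of the 94 genes. The motif of NRF1, written CGCANGCG, was in 29 of 76 (38.2%), in 21.2% of the promoters of all tested genes and in 9.22% of all promoters. The ETS motif that GABPA binds, CCGGAAG, was in 25%, 23.2% and 9.93%. The YY1 motif, AAGATGGC, was in 14.5%, 5.96% and 3.19%. A match is a description of the letters and not of binding. Any of the 3 motifs was in 63.2% of the 76 genes and in 42.3% of the promoters of all tested genes. The windows below belong to genes that were lower in all 6 litters and held a match. Of the other genes lower in all 6, Cox7a2l and Ndufb5 held no match, and Atp5a1 is not described here. Each window has 100 bases before and 30 after the start, 5′ to 3′ on the minus strand of the gene, with the match in capitals. The full window of Ndufs6 also held the YY1 motif, past the printed stretch. A link between motifs and levels was not tested.
Uqcrh, chr4:116075041-116075170, with the ETS motif on the opposite strand: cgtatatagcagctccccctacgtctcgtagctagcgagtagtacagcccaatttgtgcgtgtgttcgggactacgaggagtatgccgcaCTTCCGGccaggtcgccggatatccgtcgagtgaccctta
Atp5g3, chr2:73911297-73911426, with the NRF1 motif on the opposite strand: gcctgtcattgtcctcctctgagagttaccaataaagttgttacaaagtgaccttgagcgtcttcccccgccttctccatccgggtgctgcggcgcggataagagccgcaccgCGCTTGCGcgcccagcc
Ndufs6, chr13:73328453-73328582, with the NRF1 motif on the opposite strand: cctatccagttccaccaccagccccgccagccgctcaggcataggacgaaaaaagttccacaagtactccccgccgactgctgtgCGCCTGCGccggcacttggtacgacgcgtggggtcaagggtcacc

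Genes of the same pathway that lie outside the rule were read from hand-written lists. All 13 mitochondrially encoded subunits were tested, 10 with a mean ratio above 0 and 3 below, and a median of 0.14, where 60 of the 83 nuclear genes were below 0. The medians of the 13 were -0.16, 0.63, 0.50, -0.33, -0.15 and 0.17 in litters 1 to 6, so litters went both ways, and the difference from the nuclear genes was not tested. Of the 13, mt-Nd2, a subunit of complex I, alone had an unadjusted p under 0.05 in limma. This was 7.69% of the 13, where 8.21% of all genes tested had such a p, so the share was near the background. The values of mt-Nd2 are given as a description. This gene was at 476, 760, 934, 590, 699 and 634 TPM in litters 1 to 6 of libraries labelled ErbB4myeKO and at 460, 492, 661, 574, 668 and 582 TPM in those labelled ErbB4FF. It was higher in 6 of 6 litters, at a ratio of 0.23 ± 0.26 (SD, n = 6 litters, exact permutation p = 0.0312), and the ratio was 0.15 without litter 2. Litter 5 stood less apart here, with a median difference of 0.34 from the other litters.

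Cycs, the mobile electron carrier, was at 41.7 ± 7.83 TPM in libraries labelled ErbB4myeKO and 41.6 ± 13.6 TPM in those labelled ErbB4FF (SD, n = 6 each). Cyc1, the cytochrome c1 of complex III, was at 24.0 ± 12.5 and 23.4 ± 7.47 TPM. AA467197 was at 591 ± 253 and 549 ± 270 TPM (SD, n = 6 each) and was the most abundant of these genes. Their list, with Atpif1, had 4 genes tested, and 0 of them had an unadjusted p under 0.05 in limma.

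Of the assembly factors outside the rule 34 of 41 were tested, 20 with a ratio below 0, and 2 had an unadjusted p under 0.05, a smaller share than the 8.21% of all genes tested. They were Sco1 and Cox14, which act on complex IV. Sco1, which delivers copper, was at 18.8 ± 4.83 and 24.2 ± 6.93 TPM (SD, n = 6 each), with a ratio of -0.34 ± 0.22, and Cox14 had -0.22 ± 0.22 (SD, n = 6 litters), each lower in 6 of 6 litters (exact permutation p = 0.0312 for each). Of 19 regulators of mitochondrial gene expression 15 were tested, with 1 lower and 1 higher at an unadjusted p under 0.05. Nrf1, the factor of the first motif, was at 1.06 ± 1.11 and 2.45 ± 0.975 TPM (SD, n = 6 each), lower in 4 of 6 litters (exact permutation p = 0.125). Lrpprc, which stabilises mitochondrial messenger RNA, was at 6.67 ± 0.714 and 5.45 ± 0.781 TPM (SD, n = 6 each), higher in 6 of 6 litters at a ratio of 0.27 ± 0.19 (exact permutation p = 0.0312). All 8 genes of the metabolic shift of M1 macrophages were tested, with ratios from -2.22 for Nos2 to 0.20 for Pdk1 and a median of 0.03, and 0 had an unadjusted p under 0.05. Nos2, the inducible nitric oxide synthase, was between 0 and 139 TPM, lower in 4 of 6 litters and higher in 1, with an SD of 4.16 over litters. For every gene of these lists limma's adjusted p was at least 0.603.

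The cell type of the label was read from marker lists. All 8 macrophage markers were above 1 TPM in the mean, and they summed to between 8417 and 12521 TPM in libraries labelled ErbB4myeKO and between 7179 and 15964 TPM in those labelled ErbB4FF. Their mean ratios were below 0 for 4 and above 0 for 4, with a median of -0.05. Of them, Fcgr1 alone had an unadjusted p under 0.05 in limma and was lower in the former in 6 of 6 litters, at a ratio of -0.86 ± 0.74 (SD, n = 6 litters, exact permutation p = 0.0312). The 12 neutrophil and granule markers summed to 41.2 to 375 TPM and 42.3 to 186 TPM, and in litter 5 to 216 and 186 TPM, with Retnlg at 0 in all 12 libraries. The 8 dendritic cell markers summed to 9.43 to 33.6 and 4.56 to 25.5 TPM, with Cd209a and Siglech at 0. The 10 lymphocyte markers summed to at most 3.8 TPM and the 8 erythroid markers to at most 0.981 TPM, with Hba-a2, Hbb-bs, Alas2 and Slc4a1 at 0. The 8 stromal markers summed to 9.28 to 105 and 16.1 to 99.3 TPM, and the 12 proliferation genes to 139 to 250 and 132 to 234 TPM. Of these other lists 5 neutrophil, 2 dendritic cell, 1 lymphocyte, 6 stromal and 10 proliferation genes were tested. Of these, 3 neutrophil, 2 dendritic cell, 0 lymphocyte, 6 stromal and 6 proliferation genes had a mean ratio above 0. In limma 3 of the genes tested from these lists had an unadjusted p under 0.05, where 8.21% of all genes did. All 3 had a higher mean in libraries labelled ErbB4myeKO. Camp, of neutrophil granules, had a ratio of 0.45 ± 0.41 (SD, n = 6 litters), higher in 6 of 6 litters (exact permutation p = 0.0312). Xcr1, of dendritic cells, had 0.63 ± 0.66 and Mki67, of dividing cells, 0.42 ± 0.38 (SD, n = 6 litters each), both higher in 5 of 6 litters (exact permutation p = 0.0938 and 0.0625). The adjusted p of these 3 genes and of Fcgr1 was 0.603 in limma. In each list the ranges of the groups overlapped, and the part of these markers in the values of the respiratory genes was not tested.

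The genes most like the 83 genes' median within litters were Med15 (r = 0.944), Rfc3 (0.943), Psmb2 (0.931), Rpl15 (0.922) and Csrnp1 (0.921). These are Pearson's r over 12 libraries centred within litter, which amount to 6 separate points, among 8697 other genes, and are given as a description.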

How the data were processed

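The authors pseudoaligned single-end 75-base reads from M1-activated BM-Mɸs of 6 ErbB4myeKO and 6 ErbB4FF mice with kallisto and deposited TPM, limited to the principal isoforms of APPRIS. Per the labels the build is mm10 and CASAVA, kallisto and sleuth were used, in versions not given in the sources used here. Columns of the authors' own sleuth comparison were not used. The table carries no counts, so precision rests on the spread between litters.

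The 405 repeated lines were dropped and TPM summed per gene. The 8780 genes that averaged 1 TPM or more entered a limma 3.58.1 fit in R 4.3.3 on log2(TPM + 0.5), using lmFit, eBayes with trend and a litter block, and p-values were adjusted over all genes by Benjamini-Hochberg. Single genes had exact two-sided permutation tests over 64 within-litter swaps. Python 3.11.15, numpy 2.4.6 and pandas 2.3.3 were used otherwise. Transcripts and 31-mers came from GENCODE M21 (GRCm38), promoters from RefSeq.

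Numbers in the sample titles pair the samples, and each litter gave a mouse of each genotype, per the series' description. Littermates' deviations from their group means correlated at 0.273 to 0.774 over 8780 genes, and over the members alone at -0.192, 0.131, 0.0382, -0.0279, 0.356 and 0.385 in litters 1 to 6. Separate mice supplied the cultures, and sex is not on the labels.

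Members and lists were chosen with earlier results of these data known. Genes named are the complex II subunits, the 2 most abundant of each other complex and of the assembly factors, the 5 with the smallest p in each direction, those of 1 sign in all litters, the isoforms and the c subunit genes, and, outside the rule, Erbb4, mitochondrially encoded subunits, AA467197, Cycs, Cyc1 and listed genes with an unadjusted p under 0.05. Further genes in the text were picked with their values in view. Alternatives were no litter block, a covariate from 4 Y-linked genes, pseudocounts of 0.1 and 1, a minimum of 0 or 5 TPM, median-ratio scaling, no trend, the highest transcript alone, and each litter left out. The values of 1 gene are not reported singly here.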

Additional observations from a re-analysis of the deposited data

Results flagged for a closer look

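Of 101 sets of 6 values tested for a sample far from the others, 36 were flagged by Dixon's ratio, against about 1 in 20 by chance, and 32 of the 36 had litter 5 at the high end, so they are not separate events. In libraries labelled ErbB4myeKO and ErbB4FF, respectively, the litter 5 values were 15894 and 17163 TPM for the summed level of the 94 genes, 258 and 274 for Ndufa1, 624 and 690 for Uqcrh, 1058 and 1098 for Cox8a, and 703 and 806 for Cox5a. They were 816 and 804 TPM for Atp5md, 103 and 133 for Ndufs6, 28.6 and 35.3 for Ndufb5, 326 and 372 for Cox7a2l, 374 and 393 for Ndufa4, 491 and 547 for Atp5g3, and 1.27 and 0.736 for Ndufa4l2. In libraries labelled ErbB4myeKO the litter 5 values of Sdhd (187 TPM), Sdhb (147), Ndufa2 (228), Atp5g1 (262) and Cox6b2 (0.973) were flagged, and in those labelled ErbB4FF those of Uqcrb (415) and Cox4i2 (3.88). For Sdhd, Sdhb, Ndufa2, Atp5g1 and Uqcrb the other group's litter 5 library was also above all 10 libraries of the other litters, with a gap under the critical value.

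Among libraries labelled ErbB4FF, Ndufa3 in litter 1 (2.57 TPM), Cox6a2 in litter 6 (4.0) and Cox6b2 in litter 4 (0.436) were flagged. For Ndufa3 and Cox6b2 the other 5 libraries of the group were listed at 0, as they were for Cox6b2 and Ndufa4l2 in libraries labelled ErbB4myeKO, so any value above 0 would have been. Of the log2 ratios between littermates, Ndufaf5 in litter 3 (1.51) and Cox6b2 in litter 5 (1.56) stood apart.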

How the results depend on the processing

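With 0 of the members at an adjusted p under 0.05 in limma in each of the 15 alternatives, and a median ratio between -0.09 and -0.03, the count at an unadjusted p under 0.05 was 8 of 83. It was 1 without the litter block (0 lower in libraries labelled ErbB4myeKO), 4 in limma without trend, and 5 to 12 with each litter left out in turn, with 5 without litter 1 and 12 without litter 2. The shares of all genes in these fits were 0.854% without the block, 7.53% without trend, 8.21% without litter 1 and 4.69% without litter 2. Thus none of the 8 members with the litter pairing had such a p without it, and genes outside the members were not compared singly between both fits. With the Y-linked covariate 7 of 83 had an unadjusted p under 0.05 in limma (6 lower), where 7.44% of all genes did. Members with a mean ratio below 0 were 60 of 83 in the main fit and 54 of 83 with the Y-linked covariate. They were 53 of 83 without litter 6 and 66 of 84 without litter 2. The count of members that differed between litters, 56, was 7 without litter 5, an alternative chosen after the data had been seen.

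Of 417 values of named members under the alternatives, 401 kept their sign and 16 changed it. With the Y-linked covariate, Ndufa1 was at 0.03, Uqcrb at 0.02 and Atp5g2 at 0.02. With one litter left out, the ratio of Sdhc ran from -0.08 to 0.01 (0.01 without litter 2 and without litter 6), that of Ndufa1 from -0.11 to 0.03 (0.03 without litter 1 and 0.02 without litter 6), and that of Uqcrb from -0.09 to 0.02 (0.00, 0.01 and 0.02 without litters 4, 5 and 6). Atp5md ran from -0.04 (without litter 3) to 0.11, Ndufaf5 from -0.10 (without litter 3) to 0.24, Atp5g1 from -0.17 to 0.03 (without litter 3), and Atp5g2 from -0.07 to 0.05 (0.04, 0.02 and 0.05 without litters 2, 5 and 6). Other ratios kept their sign but moved by over 1.5 times, given here for those of 0.1 or more and for Atp5g1. With the highest transcript alone Atp5g3 was at -0.21, Ndufa4 at -0.40 and Atp5g1 at -0.32, and with a pseudocount of 0.1 Ndufa3 was at 2.70, Ndufaf6 at 1.47 and Cox7a1 at -2.09. Sdhd was at -0.09, Ndufb6 at 0.09 and Ndufaf2 at 0.03 without litter 2, Sdhb at -0.13 without litter 3, Cox5a at -0.08 without litter 6, Ndufa3 at 2.46 without litter 1, and Ndufaf6 at 0.40, 1.34 and 0.43 without litters 1, 2 and 3. Ndufaf2 was also at 0.24 with the Y-linked covariate and at 0.06 and 0.27 without litters 5 and 6. The cause of these changes was not tested.

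Values of a low level, such as those of Ndufa3, Ndufaf6 and Cox7a1, include libraries listed at 0, and without counts in the table their counting error is unknown.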
